A study of Mus musculus with 12 samples.

Results

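The mitochondrial ribosomal protein genes are 78 of the 17523 genes in the deposited table. They were taken by name alone: every gene whose mouse symbol starts with Mrpl or Mrps followed by a digit, with pseudogenes left out. The genes were followed in 12 RNA libraries of CD4+ T cells sorted from spleens of naïve Gr/fr mice on the C57BL/6 strain. The mice were 2 to 3 months old and of both sexes. In Gr/fr mice the Csf2 allele also encodes iCre and BFP, and a stop cassette in the Rosa26 locus, flanked by loxP sites, is removed by Cre in front of eYFP. YFP therefore marks cells that express GM-CSF, cells that once did, and their progeny. All 4 groups carried these alleles and no mouse was immunized or treated. The groups were naïve cells (CD62L+CD44-) without YFP, naïve cells with YFP, effector memory or TEM cells (CD62L-CD44hi) without YFP, and TEM cells with YFP, with 3 libraries each.

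Mitochondria make the few membrane proteins encoded in their own DNA on a ribosome of their own. Its RNA comes from the mitochondrial genome, but every protein of it is encoded in the nucleus, translated in the cytosol and imported. The small subunit reads the messenger RNA and the large subunit joins the amino acids. Part of the proteins descend from those of the bacterial ribosome and part are found only in mitochondria. T cells enlarge their mitochondrial translation when they are activated, and blocking it limits their effector functions, which is why this family is of interest in naïve and memory cells.

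Of the 78 genes, 16 encode small subunit proteins with a bacterial homolog, 10 small subunit proteins specific to mitochondria, 30 large subunit proteins with a bacterial homolog and 21 large subunit proteins specific to mitochondria. The last group includes Mrps18a and Mrps30, whose names say small subunit but whose proteins sit in the large one. The remaining gene, Mrps36, carries the name but encodes a component of the α-ketoglutarate dehydrogenase complex. The genes lie on 17 chromosomes, with 11 on chromosome 11, 8 on chromosome 17 and 7 on chromosome 6, so they are not one cluster.

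Because the genes are scattered and serve one particle, the 250 bases upstream of the RefSeq start site (GRCm38.p6) are shown for 5 genes that come up below: Mrpl30, Mrpl58 and Mrps18b, which were lower in TEM cells, and Mrpl52 and Mrps6, which were higher. Each is written 5′ to 3′ on the strand of its gene. Capitals mark matches, on either strand, to the cores CCGGAAG of ETS factors, GCGCATGCG of NRF1 and AAGATGGC of YY1, which are common in promoters of nuclear genes for mitochondrial proteins, or to the E-box CACGTG bound by MYC and its relatives.
Mrpl30, chr1:37890227-37890476, + strand: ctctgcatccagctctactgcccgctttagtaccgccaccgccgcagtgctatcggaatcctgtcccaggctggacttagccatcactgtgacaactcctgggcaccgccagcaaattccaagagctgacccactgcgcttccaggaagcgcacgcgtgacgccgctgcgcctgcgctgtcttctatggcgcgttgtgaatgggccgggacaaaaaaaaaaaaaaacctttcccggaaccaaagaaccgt
Mrpl58, chr11:115403502-115403751, + strand: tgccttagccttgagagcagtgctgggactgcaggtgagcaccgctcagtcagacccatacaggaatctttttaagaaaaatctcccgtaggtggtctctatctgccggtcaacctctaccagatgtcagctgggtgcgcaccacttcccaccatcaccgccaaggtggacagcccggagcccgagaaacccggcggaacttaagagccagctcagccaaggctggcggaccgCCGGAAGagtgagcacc
Mrps18b, chr17:35916441-35916690, - strand: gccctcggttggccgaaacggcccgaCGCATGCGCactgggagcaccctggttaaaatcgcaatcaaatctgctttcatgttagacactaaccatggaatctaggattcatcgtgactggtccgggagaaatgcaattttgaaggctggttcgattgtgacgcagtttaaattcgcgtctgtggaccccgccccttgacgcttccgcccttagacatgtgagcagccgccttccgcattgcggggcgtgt
Mrpl52, chr14:54426659-54426908, + strand: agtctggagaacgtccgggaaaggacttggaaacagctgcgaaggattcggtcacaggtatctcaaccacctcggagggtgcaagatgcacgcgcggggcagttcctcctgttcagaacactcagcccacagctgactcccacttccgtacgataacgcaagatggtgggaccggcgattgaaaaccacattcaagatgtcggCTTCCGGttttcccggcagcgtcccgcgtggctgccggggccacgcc
Mrps6, chr16:92058086-92058335, + strand: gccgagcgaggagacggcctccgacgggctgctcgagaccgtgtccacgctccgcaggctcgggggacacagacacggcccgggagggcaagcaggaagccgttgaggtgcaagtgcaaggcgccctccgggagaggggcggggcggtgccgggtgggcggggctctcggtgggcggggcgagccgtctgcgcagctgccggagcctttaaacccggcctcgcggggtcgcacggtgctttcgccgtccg

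The upstream sequence of Mrpl58 holds the ETS core, that of Mrpl52 holds it on the opposite strand and that of Mrps18b holds the NRF1 core on the opposite strand, with an ETS core past its start site, in bases not shown. Those of Mrpl30 and Mrps6 hold none of the 4 motifs. RefSeq promoters of 300 bases, from 250 before to 50 after the start site, were at hand for 69 of the 78 genes (75 promoters). The ETS core stood in 34.7% of these 75 promoters, against 8.86% of all 32851 promoters and 16.2% of the 14429 promoters of genes tested here. The NRF1 core stood in 9.33% against 1.75% and 3.24%, the YY1 core in 16.0% against 2.75% and 4.03%, and the E-box in 9.33% against 7.15% and 9.51%. Of the 26 genes with the ETS core, 2 were higher and 2 lower in TEM than in naïve YFP- cells, and their median log2 fold change was -0.02. All 69 genes with a promoter had 4 higher and 9 lower, and over all genes tested 29.9% were higher and 19.9% lower. Of the 7 genes with the NRF1 core, none was higher and 2 were lower. None was called of the 12 with the YY1 core or the 5 with the E-box. The NRF1 core reads nearly alike on both strands, so 1 stretch can match on both. A match is a stretch of letters, not a measured binding site.

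Each library held from 40974124 to 57822269 reads on genes. The deposited values are normalized counts, that is, reads divided by the size factor of the library, and all 78 genes passed the filter of a normalized count of 5 or higher in 3 or more libraries, which kept 15587 genes. Tests were made with limma on log2 of the normalized count plus 1, and a gene was called at an adjusted p of 0.05 or less over all 15587 genes. This fit did not pair libraries by replicate number, and fits with that number as a block are given as alternatives. Nothing in the labels says that the libraries of a group came from separate animals beyond a stated n of 3, so p-values measure the spread between these libraries. The T cell, naïve and memory markers matched the labels. The 6 T cell markers summed to 172000 to 229700 normalized counts over the 12 libraries. The 4 naïve markers summed to 237800 to 303700 in naïve and 68480 to 84050 in TEM libraries. The 4 memory markers summed to 5520 to 6873 in naïve and 101900 to 120200 in TEM libraries. Csf2 averaged 116 normalized counts in YFP+ TEM cells and 1.15 to 2.34 in the other groups, so it did not set YFP+ naïve apart from YFP- naïve cells. Markers of other cells were present too, and most differed between groups. The 5 B cell markers, all above 0 in every library, summed to 321 to 1559 over the 12 libraries. The 4 conventional dendritic cell markers, all above 0 in every TEM library, summed to 6092 to 12040 in YFP- TEM cells, 400 to 808 in YFP+ TEM cells and 42.8 to 252 in naïve cells. The 5 plasmacytoid dendritic cell markers summed to 10360 to 19160, 3331 to 4252 and 2522 to 3382, and the 5 monocyte and macrophage markers to 7542 to 14590, 1867 to 3618 and 409 to 3570 in the same order. The 3 NK cell markers summed to 602 to 786 in YFP- TEM, 1336 to 2032 in YFP+ TEM and 241 to 310 in naïve cells. The 2 CD8 T cell markers summed to 686 to 1490 in YFP- TEM against 187 to 373 in YFP+ TEM cells, and to 1166 to 1321 in YFP- naïve against 500.4 to 608 in YFP+ naïve cells. The 5 proliferation markers summed to 25970 to 37000 in YFP- TEM, 17050 to 22200 in YFP+ TEM and 2432 to 2940 in naïve cells. The part of these cells and of cycling in the results was not tested. In bulk RNA, fewer cells of a type and less RNA per cell cannot be told apart.

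The family was expressed at moderate levels. Per length, the 78 genes had an RPKM (reads scaled to the annotated exon length and to the reads on genes of the library) from 1.503 to 33.2, averaged over the 12 libraries, with a median of 9.18. The median was 28.0 for 82 nuclear genes of oxidative phosphorylation subunits, 378 for 88 genes of cytosolic ribosomal proteins and 4.40 for 14905 tested genes with a length. The highest levels were those of Mrpl34 (33.2), Mrps23 (31.9), Mrpl52 (31.7), Mrpl18 (29.5) and Mrps21 (27.9), and the lowest those of Mrps10 (1.503), Mrpl47 (1.65), Mrps25 (2.00), Mrpl17 (2.20) and Mrps22 (2.20). Neighbours in this order were mostly not separable: of the 77 pairs of neighbours, 38 overlapped in every group and 1 was apart in all 4 groups. The level per length depends on the annotated exons, which run from 607 bases for Mrpl34 to 8631 bases for Mrps35. These levels describe RNA per annotated base and not protein.

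**Figure D1:**
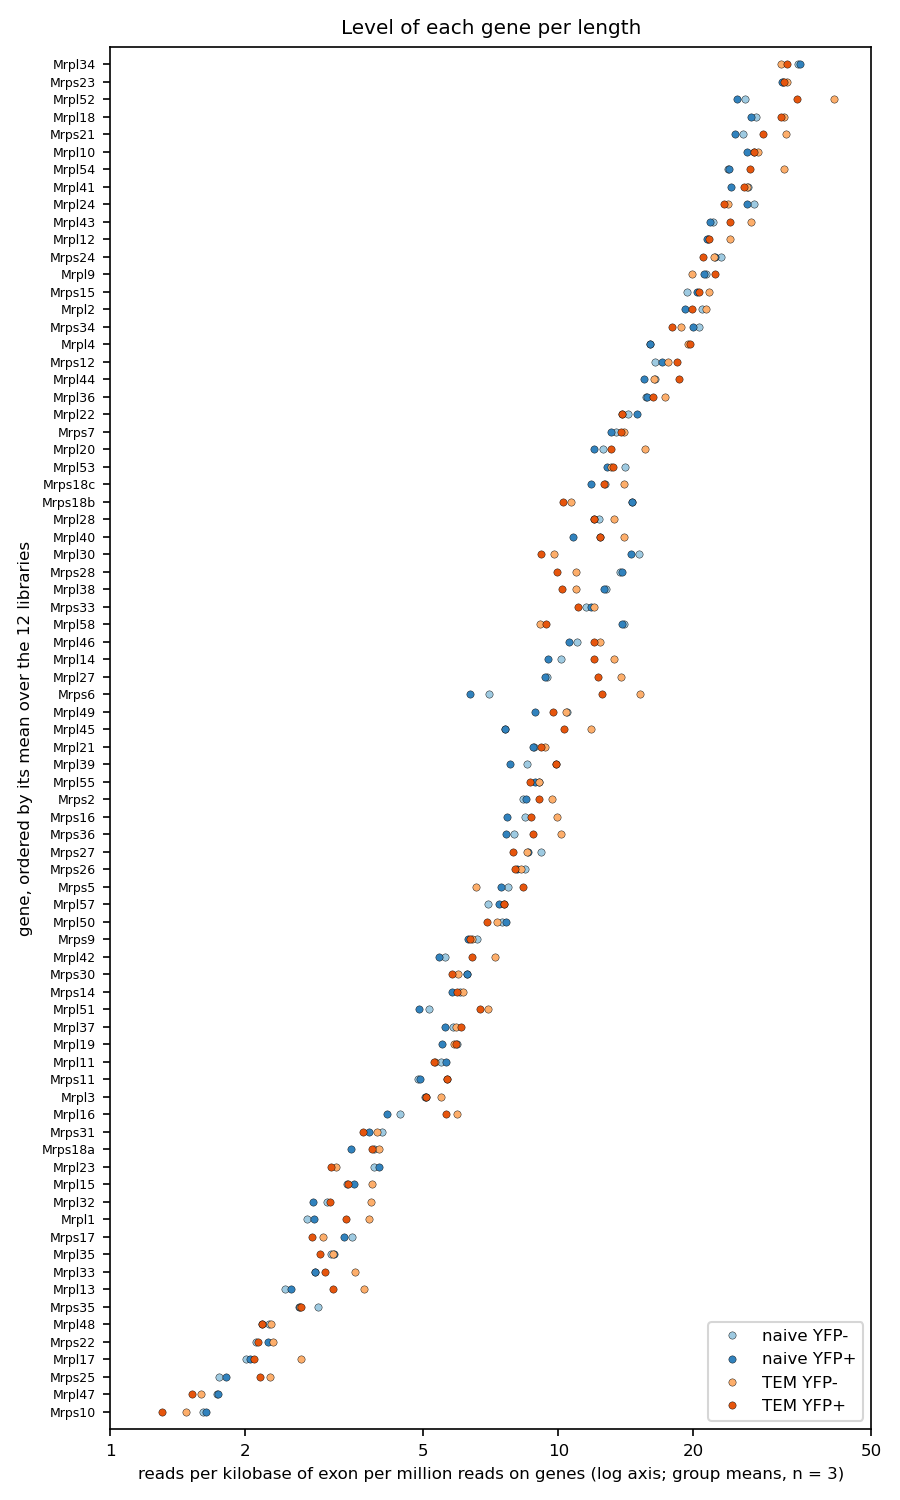
Level of each of the 78 genes per length, as RPKM on a log axis, with 1 point for the mean of each group (n = 3) and genes ordered by their mean over the 12 libraries. The 4 points of most genes lie close together, while those of Mrps6, Mrpl30, Mrpl58 and Mrps18b are spread into a naïve and a TEM pair.

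Summed over the family, the level in a library lay between 1720 and 2093 RPM (reads scaled to the reads on genes of the library). It was 1874 ± 135 (SD, n = 3) in naïve YFP-, 1828 ± 88.8 in naïve YFP+, 1966 ± 113 in TEM YFP- and 1877 ± 28.0 in YFP+ TEM cells, and the libraries of the 4 groups overlapped. On the scale of normalized counts the order of naïve and TEM cells turned: the sums were 89420 ± 2021, 88100 ± 3410, 85160 ± 4094 and 83340 ± 2471 in the same order. Which cells had more therefore depended on the scale, and the sum gives no direction for the family. The spread between replicates was small, with a median SD of 0.09 to 0.12 on the log2 scale by group, against 0.17 to 0.22 over all genes tested. Between the lowest and the highest of the 4 group means, 71 of the 78 genes (91.0%) moved by under 0.5 on the log2 scale, as did 41.0% of all genes tested, 92.8% of the oxidative phosphorylation genes and 3.41% of the cytosolic ribosomal protein genes.

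**Figure D2:**
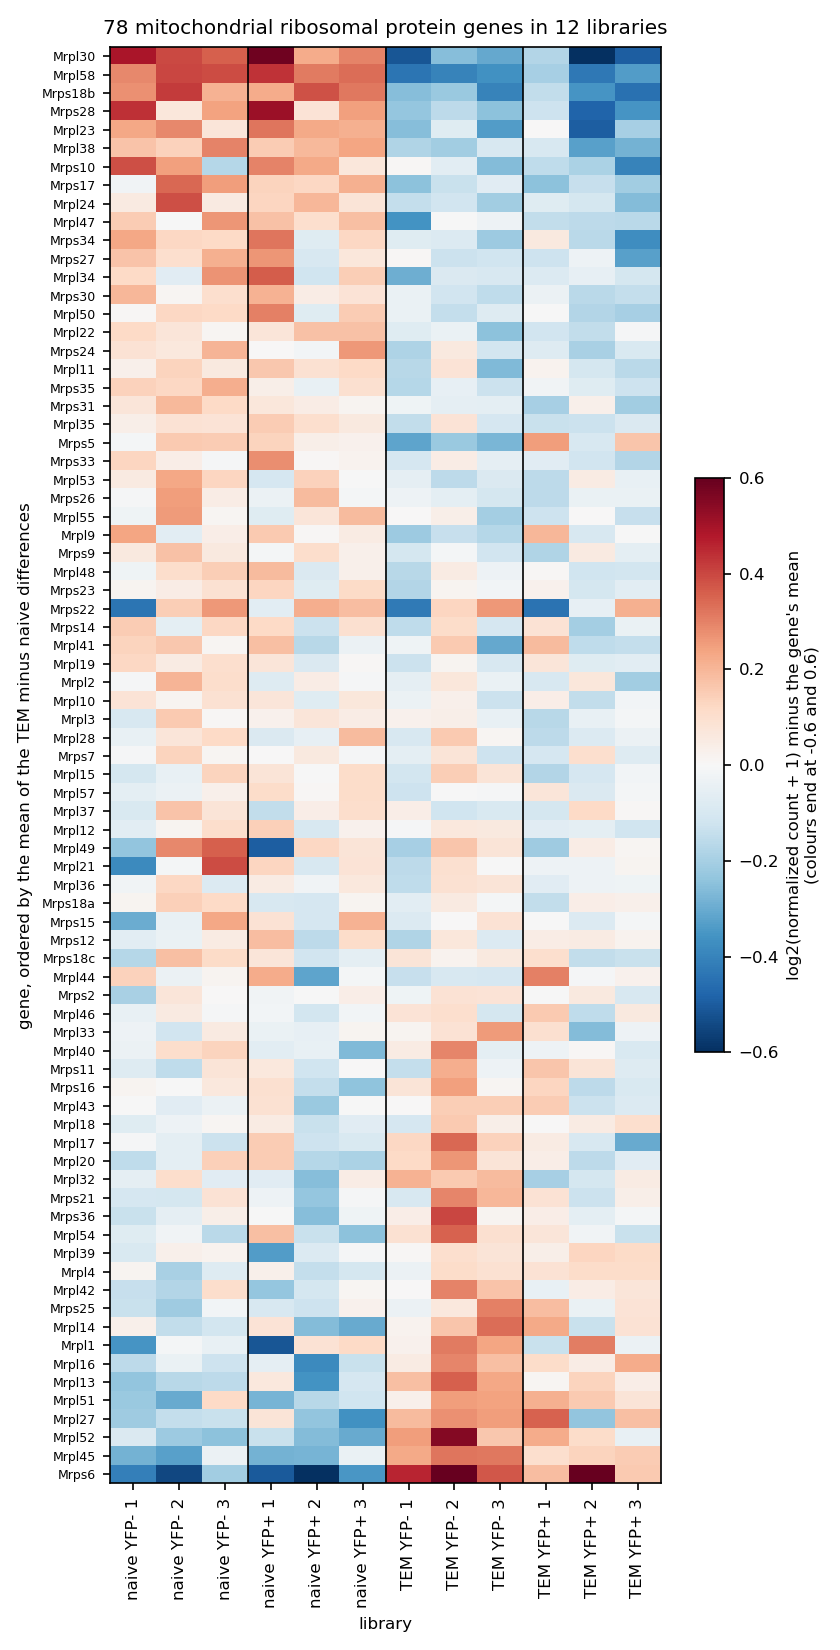
Log2 of the normalized count plus 1, minus the mean of the gene, for the 78 genes (rows, ordered by the mean of both TEM minus naïve differences) in the 12 libraries (columns, by group and replicate). Genes at the top, led by Mrpl30, Mrpl58 and Mrps18b, are higher in the 6 naïve libraries, those at the bottom, led by Mrps6, Mrpl45 and Mrpl52, are higher in the 6 TEM libraries, and most rows between change little.

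In YFP- cells, 5 of the 78 genes were higher and 12 lower in TEM than in naïve cells, while 61 did not pass the test. Of all 15587 genes, 29.9% were called higher and 19.9% lower in this comparison, against 6.41% and 15.4% of the members, in the scaling as deposited. The median log2 fold change of the members was -0.08, beside 0.05 over all genes tested, and the single values ran from -0.77 to 0.96. None of the 78 genes was called with a change of 2-fold or larger, as 26.4% of all genes were. For 66 of the 78 genes (84.6%) the 95% interval of the difference lay within a change of 1.5-fold either way, as it did for 30.6% of all genes. Here and in the later comparisons of groups, the median SE was 0.11 for the members and 0.18 for all genes. Such shares therefore reflect the precision of the genes as well as the size of their changes. The libraries of the groups did not overlap for 35 of the 78 genes (44.9%), against 59.0% of all genes.

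The split between higher and lower depended on the scaling. Dividing by the total of each library gave 17 higher and 3 lower, TMM factors gave 4 and 16, and quantile normalization gave 3 and 40. The share of members called lower was 3.85%, 20.5% and 51.3% in these fits, beside 13.1%, 22.7% and 38.0% of all genes, so under quantile normalization it was above that of all genes, as it was with TMM and the replicate block (29.5% beside 28.3%). The share called higher was below that of all genes in each. The median of all genes moved with it, to 0.19, 0.00 and -0.20 in these fits, and the median of the members minus that of all genes was -0.13, -0.13 and -0.09, and -0.13 in the scaling as deposited. With the replicate number as a block, which pairs libraries in this comparison, 11 genes were higher and 15 lower. These were 14.1% and 19.2% of the members, beside 33% and 25.3% of all genes. Without YFP- TEM replicate 3 the count of lower genes was 7 (8.97%, beside 16.9% of all genes). Called in the same direction under all 4 scalings were 3 lower genes, Mrpl30, Mrpl58 and Mrps18b, and 3 higher ones, Mrps6, Mrpl45 and Mrpl52.

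In the scaling as deposited, the largest decrease was that of Mrpl30 (chr1:37890477-37898338), a large subunit protein with a bacterial homolog. Its normalized counts were 2454, 2303 and 2243 in naïve YFP-, 2622, 2044 and 2153 in naïve YFP+, 1225, 1467 and 1414 in TEM YFP- and 1549, 1147 and 1242 in TEM YFP+ libraries. All 6 TEM libraries were below all 6 naïve ones. The log2 fold change in YFP- cells was -0.77 with an SE of 0.13 (adjusted p = 0.000251, limma). It held its call in the 21 alternatives that kept the fold unrestricted, with values from -0.88 to -0.63, and was below the added threshold of a 2-fold change.

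Mrpl58 (chr11:115403724-115412674) encodes a peptidyl-tRNA hydrolase that is built into the large subunit and frees chains from stalled ribosomes. It had 2120, 2292 and 2276 normalized counts in naïve YFP-, 2346, 2155 and 2188 in naïve YFP+, 1281, 1312 and 1346 in TEM YFP- and 1510, 1289 and 1374 in TEM YFP+ libraries. Here too the naïve and TEM libraries were fully apart, and the SD of the 3 YFP- TEM libraries was 32.3. The log2 fold change in YFP- cells was -0.76 with an SE of 0.08 (adjusted p = 6.44e-06, limma), the most certain change in the family.

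Mrps18b (chr17:35910380-35916440) is one of 3 related genes, with Mrps18a and Mrps18c. Its counts were 1425, 1577 and 1363 in naïve YFP-, 1378, 1538 and 1470 in naïve YFP+, 989, 1009 and 893 in TEM YFP- and 1066, 923 and 863 in TEM YFP+ libraries, again without overlap of naïve and TEM cells. In YFP- cells it fell by 0.59 on the log2 scale with an SE of 0.10 (adjusted p = 0.000379, limma). An antisense transcript, Gm16279, shares 638 of its 2089 annotated exon bases, and the strand setting of the counting is not given in the sources used here. Its relatives differed from it in value: Mrps18a, whose protein belongs to the large subunit, had a log2 fold change of -0.10 with an SE of 0.10 (adjusted p = 0.428) and Mrps18c one of 0.01 with an SE of 0.12 (adjusted p = 0.949) in the same limma fit. Mrps18a ranged from 576 to 705 and Mrps18c from 559 to 713 normalized counts over the 12 libraries, and neither passed the test in any of the 5 comparisons. Under quantile normalization both were called lower, with log2 fold changes of -0.45 and -0.34.

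Mrps28, a small subunit protein with a bacterial homolog, had 452 to 585 normalized counts in naïve YFP- and 364 to 387 in TEM YFP- libraries, a log2 fold change of -0.46 with an SE of 0.15 (adjusted p = 0.023, limma). Mrpl23, whose protein sits at the exit of the tunnel for the new chain, had 825 to 960 and 622 to 746, a log2 fold change of -0.42 with an SE of 0.13 (adjusted p = 0.0171). Both calls were near the threshold. Mrps28 did not pass without YFP- TEM replicate 1, YFP- TEM replicate 3, YFP- naïve replicate 1 or YFP- naïve replicate 3 (adjusted p from 0.0527 to 0.0927), with log2 fold changes from -0.55 to -0.37 over the 6 libraries left out in turn, and Mrpl23 did not pass without YFP- TEM replicate 3 (0.0658) or YFP- naïve replicate 2 (0.0587), with values from -0.49 to -0.36. Scaled by library totals, neither passed (0.0543 and 0.0924). Under quantile normalization Mrps28 was at -1.03 (adjusted p = 0.000364), beyond Mrpl30 in the same fit (-0.88). The other genes called lower were Mrpl24, Mrpl38, Mrpl9, Mrps5, Mrps17, Mrps30 and Mrps35, with log2 fold changes from -0.37 to -0.21.

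Mrps6 (chr16:92058336-92112227), a small subunit protein with a bacterial homolog, had the largest change of the family. Its counts were 502, 457 and 578 in naïve YFP-, 471, 413 and 524 in naïve YFP+, 916, 1242 and 865 in TEM YFP- and 760, 1036 and 745 in TEM YFP+ libraries. Every TEM library was above every naïve one, and replicate 2 was the highest in both TEM groups. The log2 fold change in YFP- cells was 0.96 with an SE of 0.17 (adjusted p = 0.000526, limma). Mrps6 shares 159 exon bases on the same strand with Slc5a3, the sodium and myo-inositol cotransporter, and 305 with the gene model Gm49711, of 1533 in all. Slc5a3 was itself higher in TEM cells, with a log2 fold change of 0.60 in YFP- cells (adjusted p = 0.00731), and reads of the shared bases could count for either gene. The part of this overlap in the result was not tested.

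Mrpl45 (chr11:97314923-97329920) encodes a large subunit protein near the tunnel exit that helps to hold the ribosome at the inner membrane. It had 894, 866 and 1060 normalized counts in naïve YFP-, 892, 895 and 1058 in naïve YFP+, 1271, 1360 and 1354 in TEM YFP- and 1165, 1192 and 1207 in TEM YFP+ libraries. All TEM libraries were above all naïve ones, and the YFP- TEM libraries were above the YFP+ TEM libraries. Its log2 fold change in YFP- cells was 0.50 with an SE of 0.10 (adjusted p = 0.00124, limma).

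Mrpl52 (chr14:54426909-54429750), a large subunit protein specific to mitochondria, had 1482, 1351 and 1327 normalized counts in naïve YFP-, 1433, 1311 and 1276 in naïve YFP+, 1871, 2304 and 1758 in TEM YFP- and 1835, 1698 and 1523 in TEM YFP+ libraries, so the lowest TEM library was only just above the highest naïve one. Its log2 fold change in YFP- cells was 0.50 with an SE of 0.11 (adjusted p = 0.00229, limma). The other 2 genes called higher were Mrpl13 (0.44, adjusted p = 0.00437), the homolog of a bacterial large subunit protein, and Mrpl51 (0.31, adjusted p = 0.0412), specific to mitochondria. Mrpl13 was at an adjusted p of 0.0521 under quantile normalization. Mrpl51 did not pass under quantile normalization (0.14, adjusted p = 0.322), with TMM factors (0.0809), edgeR (0.0993), edgeR and the block (0.0531), 6 libraries alone (0.081) or no variance trend (0.0572), nor without YFP- TEM replicate 2, YFP- TEM replicate 3, YFP- naïve replicate 1 or YFP- naïve replicate 2 (0.12 to 0.153).

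**Figure D3:**
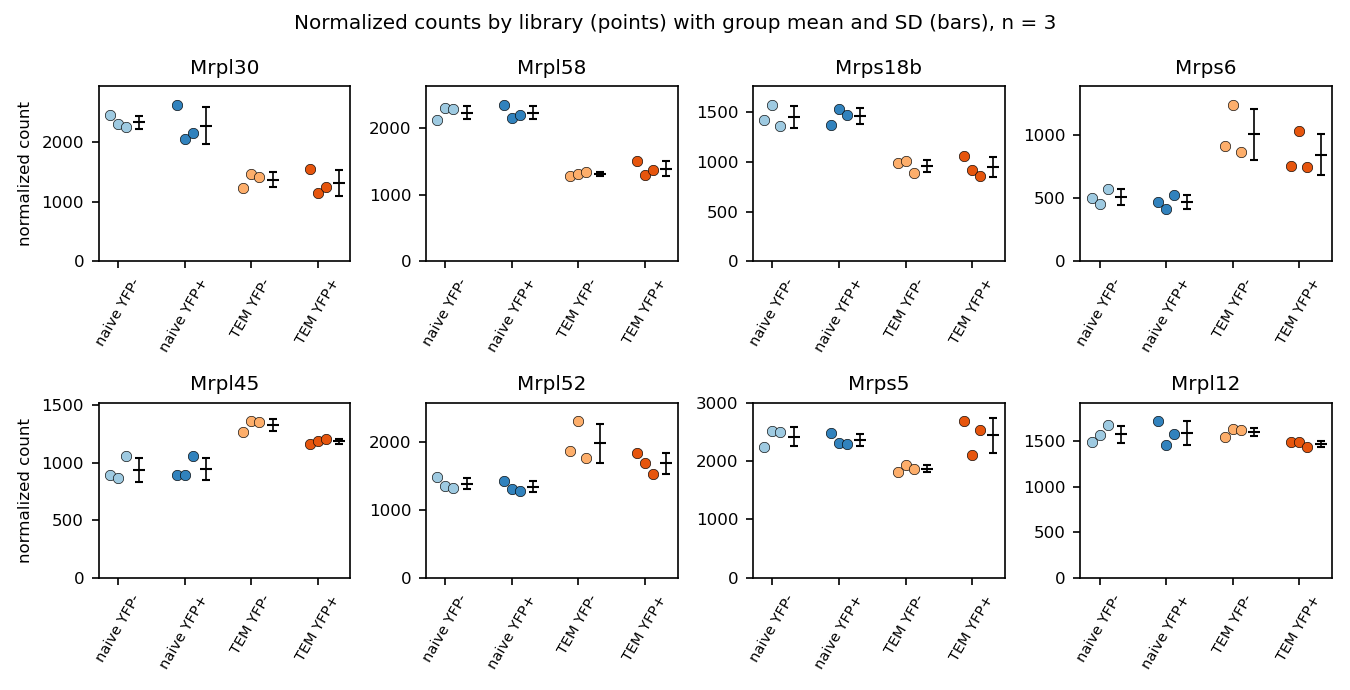
Normalized counts of 8 of the genes in each library (points) with the mean and SD of each group beside them (n = 3), on axes that start at 0. The TEM points of Mrpl30, Mrpl58 and Mrps18b lie below all naïve points and those of Mrps6, Mrpl45 and Mrpl52 above them, Mrps5 is lower in YFP- TEM cells alone of the 4 groups and Mrpl12 is level.

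In YFP+ cells the comparison of TEM with naïve cells uses 6 other libraries. There 5 of the 78 genes were higher and 10 lower in TEM cells, and 63 did not pass, beside 24.7% higher and 16.7% lower over all genes tested. The median log2 fold change was -0.07 for the members and 0.03 for all genes, and the members ran from -0.79 to 0.84. None was called with a change of 2-fold or larger, against 21.3% of all genes. The groups did not overlap for 27 of the 78 genes (34.6%), against 48.7% of all genes, and the 95% interval lay within 1.5-fold for 66 (84.6%, against 33.4%). Scaled by library totals the count was 7 higher and 6 lower, with a median of 0.05, beside 29.1% and 11.2% of all genes. Under quantile normalization it was 1 and 23, with a median of -0.18, beside 19.7% and 29.7% of all genes. Here too the sign of the members' median depended on the scaling. The median of the members minus that of all genes was -0.10 as deposited, with TMM factors and with library totals, and -0.04 under quantile normalization. With the replicate block the count was 6 and 11, beside 28.6% and 22.5% of all genes. The count of higher genes was 1 without YFP+ naïve replicate 2, 2 without YFP+ TEM replicate 1, and 3 without YFP+ TEM replicate 3 or YFP+ naïve replicate 3. With 1 library left out, 21.4% to 24.9% of all genes were higher.

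Of the 10 decreases, 9 were also called in YFP- cells, and Mrps10 was not. On the log2 scale Mrpl30 differed by -0.79 (SE 0.13, adjusted p = 0.000275), Mrpl58 by -0.68 (SE 0.08, adjusted p = 2.43e-05), Mrps18b by -0.62 (SE 0.10, adjusted p = 0.000346), Mrps28 by -0.60 (SE 0.15, adjusted p = 0.00707) and Mrpl23 by -0.48 (SE 0.13, adjusted p = 0.00971), all by limma. With Mrpl38 these 5 genes were called lower under all 4 scalings. Mrpl30, Mrpl58, Mrps18b, Mrps28 and Mrpl23 also kept their calls when each of the 6 libraries compared was left out in turn. The other genes called lower were Mrpl24, Mrps10, Mrps17 and Mrps30.

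Among the increases, Mrps6 was higher by 0.84 on the log2 scale (SE 0.17, adjusted p = 0.00184, limma) and was the only gene called higher under all 4 scalings. Slc5a3, which shares exon bases with it, had 0.48 (adjusted p = 0.028). Mrpl51 had 0.34 (adjusted p = 0.0346), Mrpl45 0.33 (0.0203), Mrpl52 0.33 (0.0317) and Mrpl16, the homolog of a bacterial large subunit protein, 0.32 (0.0413). These last 4 were near the threshold. None passed under quantile normalization (0.0984 to 0.293), and each failed without at least 3 of the 6 libraries, with adjusted p up to 0.0999 for Mrpl51, 0.0658 for Mrpl45, 0.117 for Mrpl52 and 0.159 for Mrpl16. Leaving out YFP+ naïve replicate 2 lost the call for all 4 of them.

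The 2 comparisons share no library, but same-numbered YFP- and YFP+ libraries deviated together within naïve and within TEM cells, so the comparisons are not independent and their calls are set side by side as a description. Of the 5 genes higher in YFP- cells, 4 were also higher in YFP+ cells, where they were 4 of 5, namely Mrpl45, Mrpl51, Mrpl52 and Mrps6. Of the 12 genes lower in YFP- cells, 9 were also lower in YFP+ cells, where they were 9 of 10, namely Mrpl23, Mrpl24, Mrpl30, Mrpl38, Mrpl58, Mrps17, Mrps18b, Mrps28 and Mrps30. No member was called in opposite directions. Over all genes tested, 3389 were higher in both (72.6% of those higher in YFP- and 88.0% of those higher in YFP+ cells) and 2181 lower in both (70.3% and 83.8%). Called or not, 65 of the 78 genes (83.3%) had the same sign in both, as did 85.9% of all genes.

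**Figure D4:**
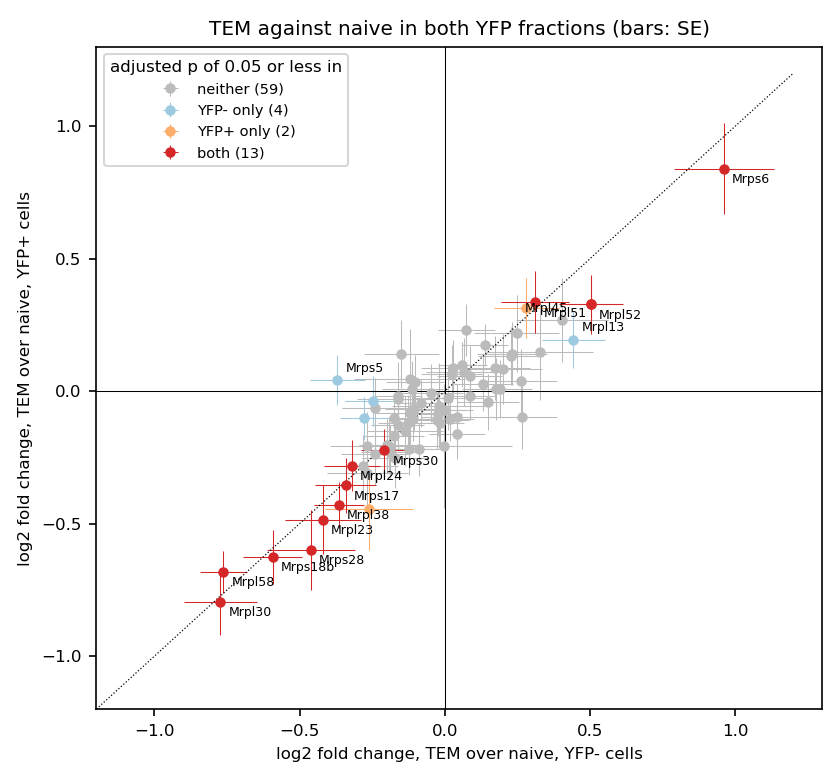
Log2 fold change of TEM over naïve cells for the 78 genes in YFP- cells (horizontal) and YFP+ cells (vertical), with bars for the SE and a dotted line of equal change. The 13 genes called in both fractions lie along the dotted line away from 0, Mrps5 and Mrpl13 stand off it and 59 genes called in neither gather around 0.

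Genes of each class of ribosomal protein were among those called. In YFP- cells, 1 higher and 3 lower genes were among the 16 small subunit proteins with a bacterial homolog, none and 2 among the 10 specific to mitochondria, 1 and 4 among the 30 large subunit proteins with a bacterial homolog and 3 and 3 among the 21 specific to mitochondria. The medians of the log2 fold change were -0.06, -0.17, -0.02 and -0.10 in that order. In YFP+ cells the counts were 1 and 3, none and 1, 1 and 3, and 3 and 3, with medians of -0.04, -0.19, -0.07 and 0.04. Over all genes tested, 29.9% were higher and 19.9% lower in YFP- cells, and 24.7% and 16.7% in YFP+ cells. In each class the share called higher was below that of all genes, and the share called lower was near it or below it. Mrps36, of the α-ketoglutarate dehydrogenase complex, had log2 fold changes of 0.20 (95% interval -0.08 to 0.49) and 0.08 (-0.20 to 0.37), neither of which passed (adjusted p = 0.226 and 0.65, limma), and both were negative under quantile normalization. These counts are a description, as no test of one class against another was made.

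Neither Mrpl12 nor Mrps12, both followed by name, passed the test in either fraction. Mrpl12, whose protein forms the stalk that recruits translation factors and also binds the mitochondrial RNA polymerase, had 1490, 1575 and 1676 normalized counts in naïve YFP-, 1721, 1460 and 1586 in naïve YFP+, 1550, 1631 and 1623 in TEM YFP- and 1489, 1497 and 1437 in TEM YFP+ libraries. Its log2 fold change of TEM over naïve cells was 0.02 in YFP- cells (95% interval -0.16 to 0.20) and -0.10 in YFP+ cells (-0.28 to 0.07). Mrps12, the decoding centre protein, had 728 to 939 normalized counts over the 12 libraries and log2 fold changes of -0.05 (-0.28 to 0.19) and -0.01 (-0.24 to 0.23). Under quantile normalization Mrps12 was called lower in YFP- cells (-0.30, adjusted p = 0.0378). The intervals of both genes thus lay within 1.5-fold in both fractions.

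Between YFP+ and YFP- TEM cells, a comparison that shares its libraries with those above, 1 of the 78 genes was higher and none lower in limma, beside 2.30% higher and 4.67% lower over all genes tested. DESeq2 and edgeR without the block gave the same counts. With the replicate number as a block, which pairs these libraries, limma again called 1 higher and none lower. The shares of all genes were then 5.22% and 6.77%. The median log2 fold change was -0.04 for the members and -0.01 for all genes, and for 76 members (97.4%) the 95% interval lay within 1.5-fold, against 48.8% of all genes. The groups did not overlap for 10 of the 78 genes (12.8%), against 25.0% of all genes.

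The gene called was Mrps5 (chr2:127587426-127603986), a small subunit protein with a bacterial homolog. Its normalized counts were 2679, 2107 and 2528 in TEM YFP+ libraries, against 1811, 1933 and 1860 in TEM YFP- libraries, with 2233, 2512 and 2503 in naïve YFP- and 2471, 2311 and 2293 in naïve YFP+ libraries. The YFP- TEM libraries were below all 9 others, and YFP+ TEM replicate 2 was the lowest of those. The log2 fold change of YFP+ over YFP- TEM cells was 0.38 with an SE of 0.09 (adjusted p = 0.0286, limma). The call was lost without any one of YFP- TEM replicates 1, 2 and 3 or YFP+ TEM replicates 1 and 3 (adjusted p from 0.0589 to 0.13), with the 6 libraries alone (0.0639), without a variance trend (0.0633) and under scaling by library totals (0.0591). The conventional dendritic cell markers summed to at least 6092 in each of the 3 libraries in which Mrps5 was low and at most 808 in the others, and their part in the result was not tested.

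Mrps5 was also the member with the lowest unadjusted p for the difference between the YFP effect in TEM and in naïve cells (the interaction). That difference was 0.41 with an SE of 0.13 and did not pass (adjusted p = 0.149, limma), except without YFP+ TEM replicate 2 (0.51, adjusted p = 0.0361). TEM and naïve cells differed by -0.37 in YFP- cells (adjusted p = 0.00571) and by 0.04 in YFP+ cells (0.754). None of the 78 genes was called in the interaction, beside 0.828% of all genes higher and 2.73% lower. At an unadjusted p of 0.05 or less there was 1 member, and edgeR and DESeq2 called none. The next were Mrpl17, with an interaction of -0.36 (95% interval -0.73 to 0.01, adjusted p = 0.444), and Mrpl13, with -0.25 (-0.58 to 0.08, adjusted p = 0.674).

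In naïve cells none of the 78 genes differed between YFP+ and YFP- cells by limma, edgeR or DESeq2, and at an unadjusted p of 0.05 or less there was none either. Over all genes 0.00642% were called higher, which is 1 gene, and 0.00% lower. The members ran from -0.23 to 0.12 on the log2 scale, with a median of -0.02 (0.01 over all genes), and for 76 (97.4%) the 95% interval lay within 1.5-fold, against 54.8% of all genes. The groups did not overlap for 4 members (5.13%), against 5.38% of all genes. Those with the lowest p were Mrpl40, with 969, 1068 and 1090 normalized counts in YFP- and 950, 962 and 827 in YFP+ libraries (log2 fold change -0.19, SE 0.11), Mrps35 (-0.13, SE 0.08) and Mrps18a (-0.15, SE 0.10), each at an adjusted p of 1.0 in limma. For these 3 genes every YFP+ library was below every YFP- one.

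Genes that build and serve the mitochondrial ribosome were measured beside its proteins. Of 65 such genes outside the family, 3 were higher and 25 lower in TEM than in naïve YFP- cells, and 2 and 18 in YFP+ cells. In all, 43.1% and 30.8% were called, beside 49.8% and 41.4% of all genes, and the medians of the log2 fold change were -0.25 and -0.17. By direction, 29.9% of all genes were higher and 19.9% lower in YFP- cells, and 24.7% and 16.7% in YFP+ cells. In the scaling as deposited, the share of the 65 genes called lower was above that of all genes, and the share called higher was below it. Scaled by library totals, the counts were 6 and 12 in YFP- and 5 and 8 in YFP+ cells, with medians of -0.11 and -0.05, and under quantile normalization they were 1 and 47, and 2 and 35. With library totals, 35.4% of all genes were higher and 13.1% lower in YFP- cells, and 29.1% and 11.2% in YFP+ cells. Under quantile normalization these shares were 23% and 38%, and 19.7% and 29.7%.

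Of 20 assembly factors and rRNA modifiers, 2 were higher and 9 lower in YFP- cells and 2 and 6 in YFP+ cells. Over all genes, 29.9% were higher and 19.9% lower in YFP- cells, and 24.7% and 16.7% in YFP+ cells. In the scaling as deposited, the share of these 20 called lower was above that of all genes, and the share higher below it. Rbfa, which matures the small subunit RNA, averaged 2759 ± 189, 2655 ± 173, 1544 ± 46.9 and 1841 ± 298 normalized counts (SD, n = 3) in naïve YFP-, YFP+ naïve, YFP- TEM and YFP+ TEM cells, with log2 fold changes of -0.83 (adjusted p = 3.36e-05, limma) and -0.54 (0.00141). Mrm1, which methylates the large ribosomal RNA, had -0.77 (0.000121) and -0.69 (0.000406). The DEAD-box helicase Ddx28, which acts in assembly of the large subunit, went the other way, with 499, 504, 1123 and 1171 normalized counts on average and log2 fold changes of 1.15 (0.000433) and 1.19 (0.000472). The GTPase Gtpbp10 had 0.68 (0.00602) and 0.74 (0.00471), while Mtg1, another GTPase of large subunit assembly, had -0.61 (0.0165) and -0.73 (0.00757). Rbfa, Mrm1 and Ddx28 passed under all 4 scalings in YFP- cells. Gtpbp10 did not pass in YFP- cells under quantile normalization (0.11, adjusted p = 0.561), nor Mtg1 with library totals (-0.47, adjusted p = 0.112).

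Of 20 enzymes that charge mitochondrial tRNAs, none was higher in either fraction, 9 were lower in YFP- and 8 in YFP+ cells. Mars2, for methionine, had the largest decrease, with 768, 741, 412 and 432 normalized counts on average in naïve YFP-, YFP+ naïve, YFP- TEM and YFP+ TEM cells and log2 fold changes of -0.89 (adjusted p = 6.16e-05, limma) and -0.78 (0.000255). Ears2 had -0.75 and -0.78, Aars2 -0.72 and -0.69, and Nars2 -0.65 and -0.41, and all 3 passed in both fractions. The median of the 20 was -0.31 in YFP- and -0.33 in YFP+ cells. Scaled by library totals, 5 and 3 were lower and 1 was higher in each fraction, beside 13.1% and 11.2% of all genes lower and 35.4% and 29.1% higher.

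Of 14 translation factors, 1 was higher and 3 lower in YFP- cells and none and 2 in YFP+ cells. Over all genes, 29.9% were higher and 19.9% lower in YFP- cells, and 24.7% and 16.7% in YFP+ cells. The shares of translation factors called lower were near those of all genes. The lower translation factors were Mrrf, which recycles the ribosome (-0.52 and -0.45), Lrpprc, which stabilizes mitochondrial messenger RNA (-0.51 and -0.51), and, in YFP- cells, the initiation factor Mtif3 (-0.24). The release factor homolog Mtrf1 had 0.84 in YFP- cells (adjusted p = 0.00613), with 202 normalized counts on average in YFP- TEM cells and 114 to 138 in the other groups, and -0.30 (adjusted p = 0.306) under quantile normalization. Of the 5 mitochondrial ribosomal proteins with other names, Dap3 was lower in both fractions (-0.33 and -0.27) and Ptcd3 in YFP- cells (-0.38), while Aurkaip1, Chchd1 and Gadd45gip1 did not pass. With library totals neither Dap3 (adjusted p = 0.077 and 0.177) nor Ptcd3 (0.181) passed, and of these 5 genes none was lower and 1 was higher in each fraction. In that scaling 13.1% and 11.2% of all genes were lower and 35.4% and 29.1% higher. Of 6 genes for mitochondrial transcription, Polrmt, the RNA polymerase, was lower in both (-0.52 and -0.45) and Tfam, which packs the DNA, in YFP- cells (-0.32). None of the 65 genes was called between YFP+ and YFP- cells in TEM or naïve cells, beside 6.97% and 0.00642% of all genes.

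The ribosome of the cytosol, which makes the mitochondrial ribosomal proteins themselves, was measured beside them. Of 88 genes for cytosolic ribosomal proteins, 2 were higher and 80 lower in TEM than in naïve YFP- cells, and 1 and 81 in YFP+ cells. Over all genes, 29.9% were higher and 19.9% lower in YFP- cells, and 24.7% and 16.7% in YFP+ cells. The median log2 fold changes of the cytosolic genes were -0.83 and -0.85, beside -0.08 and -0.07 for the 78 mitochondrial ones. Under the 3 other scalings the cytosolic medians stayed between -0.87 and -0.50. In RPM, the cytosolic genes summed to 92390 ± 3610 and 92150 ± 10350 in YFP- and YFP+ naïve cells and to 55410 ± 2695 and 54590 ± 7257 in YFP- and YFP+ TEM cells (SD, n = 3), and the naïve and TEM libraries did not overlap. Genes for nuclear subunits of oxidative phosphorylation, whose partners are made on the mitochondrial ribosome, had 12 higher and 5 lower of 83 in YFP- cells and 4 and 4 in YFP+ cells, with medians of 0.01 and -0.03. In the scaling as deposited, these shares were below those of all genes in both directions. The split turned with the scaling: with library totals it was 27 and 2 in YFP- and 14 and 2 in YFP+ cells, and under quantile normalization 8 and 15, and 2 and 14. The shares of all genes were 35.4% and 13.1%, and 29.1% and 11.2%, with library totals. They were 23% and 38%, and 19.7% and 29.7%, under quantile normalization.

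**Figure D5:**
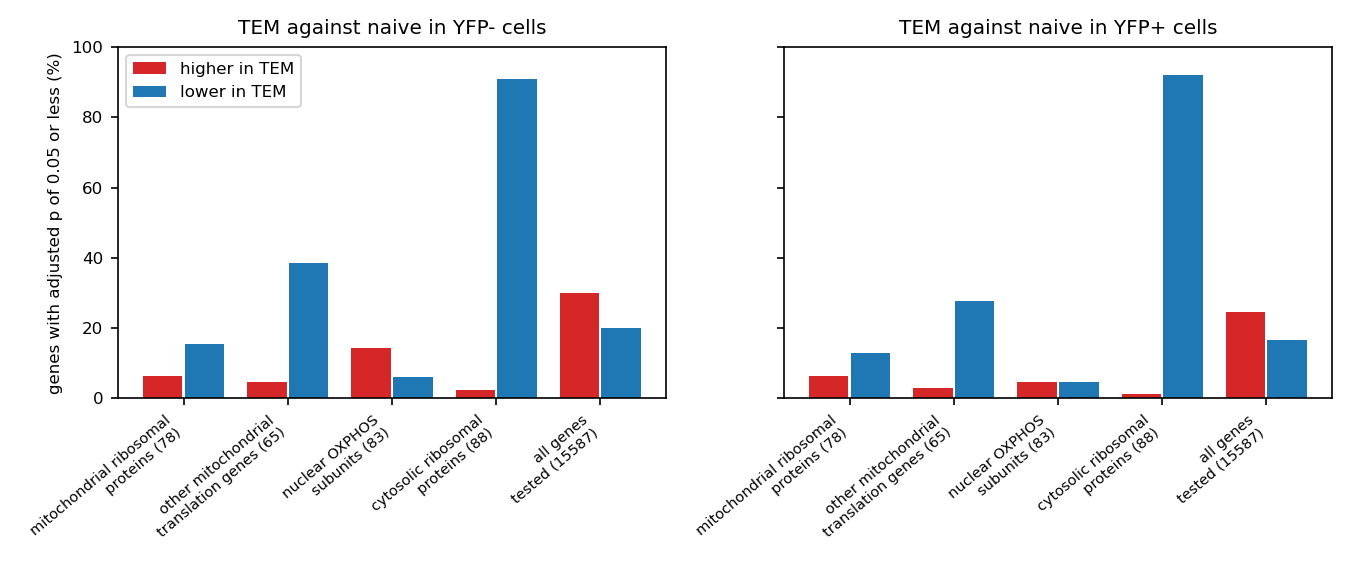
Share of genes called higher (red) and lower (blue) in TEM than in naïve cells at an adjusted p of 0.05 or less, in percent, for 5 sets of genes in YFP- cells (left) and YFP+ cells (right), with the number of genes tested in brackets. The mitochondrial ribosomal protein genes lie below the share of all genes in both directions in the scaling as deposited (under quantile normalization 40 and 23 of them are lower, in YFP- cells a larger share than that of all genes), while 80 and 81 of the 88 cytosolic ribosomal protein genes are lower.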

How the data were processed

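Total RNA of FACS-sorted CD4+ T cells was sequenced in 12 libraries (TruSeq Stranded Total RNA kit, HiSeq2500). Per the labels and the study's methods, the authors mapped reads to mm10 with DRAGEN, counted them on genes with Rsubread and divided the counts by DESeq2 size factors. The deposited signal is therefore a normalized count. Tool versions, annotation and strand setting are not given in the sources used here. Whole reads were recovered from 100% of values (tolerance 1e-06 reads). All 12 value columns were used.

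Values were analysed as log2 of the normalized count plus 1, keeping the 15587 genes that reached 5 in 3 or more libraries, with limma 3.58.1 under R 4.3.3. The model held a mean for each of the 4 groups, eBayes with a trend, 8 residual degrees of freedom and Benjamini-Hochberg adjustment over all genes tested. Genes were called at an adjusted p of 0.05 or less. A permutation test of 3 against 3 libraries cannot go below 0.1 and was not used. Symbols, coordinates and promoters came from RefSeq (GRCm38.p6), which named 16749 genes, and exon lengths and overlaps from GENCODE M21. The gene Mtrfr was on a list but was not matched.

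Named were, in each comparison, the 5 largest increases and decreases among members that passed whose mean normalized count reached 50, or the 3 with the lowest p where none passed, 7 genes fixed by name, and up to 4 passing genes per direction of each other list. The members and lists were chosen with earlier results of these data known. Fits were tested on simulated data. Same-numbered libraries, after removal of group means, correlated with r of 0.17, 0.14 and 0.23 (naïve with TEM, YFP-), 0.18, 0.34 and 0.36 (YFP- with YFP+, TEM) and 0.31, 0.49 and 0.36 (YFP- with YFP+, naïve), each over 0.1, so the replicate number was taken to pair libraries there. The main fit left this pairing out, so its SEs, intervals and p-values do not use it. Fits with the block are alternatives that do. Alternatives were quantile normalization, TMM, pseudocounts of 0.1 and 5, all genes unfiltered, genes averaging 10 or more, 6 libraries alone, the replicate block, no variance trend, edgeR 4.0.16, DESeq2 1.42.0, fold thresholds and leaving out each library. Library totals, and the block with edgeR or TMM, were added after seeing the data.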

Additional observations from a re-analysis of the deposited data

How the results depend on the processing

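Of 354 counts and medians recomputed, 307 stayed near their value and 47 moved, and of 792 values for single genes 709 kept direction and call, 52 lost the call, 3 gained one and 28 changed sign, all in genes not called as deposited. Requiring an absolute log2 fold change of 1 or 2 left 0 calls. In YFP- cells, TEM against naïve gave 17 higher and 3 lower genes (median 0.056) with library totals, and 3 and 40 (median -0.29) with quantile normalization. The shares of all genes moved too, to 35.4% higher and 13.1% lower with library totals and 23% and 38% with quantile normalization. The replicate block, which pairs these libraries, gave 11 higher, as did DESeq2 with the block, and lower genes numbered 23 with TMM and the block and 21 with edgeR and the block. Higher were 14.1% of the members in the first 2 fits, beside 33% and 32.3% of all genes. Lower were 29.5% and 26.9% of the members in the last 2, beside 28.3% and 27.4% of all genes. In YFP+ cells same-numbered naïve and TEM libraries had r of 0.20, -0.02 and 0.06, not each over 0.1. This rule alone therefore did not pair them. The pairings taken in the other comparisons link these libraries by number too, and so few libraries cannot show that pairing is absent. In YFP+ cells the block gave 6 higher and 11 lower, beside 28.6% and 22.5% of all genes. There edgeR and a fit with no variance trend each gave 3 higher, beside 23.6% and 23.7% of all genes. Library totals gave 6 lower (median 0.053), beside 11.2% of all genes. Quantile normalization gave 1 higher and 23 lower (median -0.18), beside 19.7% and 29.7% of all genes. Between YFP+ and YFP- TEM cells, higher genes numbered 0 with library totals, no variance trend or 6 libraries, beside 2.26%, 1.96% and 3.02% of all genes. They numbered 2 with TMM or edgeR and the block, beside 7.22% and 7.01% of all genes. DESeq2 with the block gave 1 lower, beside 8.42% of all genes, and the quantile median was 0.053. The interaction median was 0.0697 with quantile normalization. In naïve cells 2 genes did not overlap with TMM. With the block, lower genes in YFP- cells numbered 15 by limma and by DESeq2, beside 25.3% and 25.2% of all genes. In YFP+ cells TMM, edgeR and DESeq2 with the block each gave 6 higher, and 13, 12 and 11 lower. Of all genes, 28.4%, 27.3% and 27.9% were higher and 23.1%, 22.5% and 22.6% lower in these 3 fits. No member was called with the block between YFP+ and YFP- naïve cells or in the interaction.

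Leaving out 1 library at a time gave 4 to 6 higher and 7 to 11 lower genes in YFP- cells, 1 to 4 higher and 7 to 10 lower in YFP+ cells, 0 to 1 higher between YFP+ and YFP- TEM cells and 0 to 1 higher in the interaction, with medians within -0.12 and 0.02. Of all genes, 26.6% to 28.5% were then higher and 16.1% to 17.8% lower in YFP- cells. In YFP+ cells these shares were 21.4% to 24.9% and 13.5% to 15.3%.

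The values that changed sign ran from -0.10 to 0.20 in the scaling as deposited. Mrpl12 in YFP- cells had -0.028 with TMM with or without the block, -0.029 with edgeR, -0.028 with edgeR and the block, -0.095 with quantile normalization and -0.022 to 0.063 with a library left out, and in YFP+ cells 0.014 with library totals. Mrps12 had 0.095 and 0.11 with library totals in YFP- and YFP+ cells, and -0.11 to 0.013 and -0.11 to 0.063 with a library left out. Mrps18a had 0.039 with library totals in YFP- cells and -0.16 with quantile normalization in YFP+ cells. Mrps18c in YFP- cells had -0.036 with TMM with or without the block, -0.046 with edgeR, -0.047 with edgeR and the block, -0.34 with quantile normalization and -0.095 to 0.080 with a library left out, and in YFP+ cells 0.093 with library totals and -0.11 to 0.028 with a library left out. Mrps36 had -0.25 and -0.18 with quantile normalization. The cause of these shifts was not tested. With 3 libraries a group the median SE of a member was 0.11 on the log2 scale, which limits the changes that could be detected.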

Other observations

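A few genes of the family differed between libraries of one group by more than they did between groups. Mrps22, a small subunit protein, had 291, 437 and 474 normalized counts in YFP- naïve, 378, 460 and 448 in YFP+ naïve, 294, 432 and 474 in YFP- TEM and 290, 382 and 457 in YFP+ TEM libraries, in the order of replicates 1, 2 and 3. The library numbered 1 was the lowest in all 4 groups. Mrpl49, a large subunit protein, had 707, 1019 and 1069, then 592, 908 and 879, then 728, 936 and 879, and last 720, 860 and 840 in the same order, so the library numbered 1 was again the lowest of each group. Neither gene was called in any comparison.

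Of the 78 genes, 33 share annotated exon bases with another gene, 8 of them on the same strand. The 45 that share none held 2 of the higher and 7 of the lower calls in YFP- cells and 3 and 6 in YFP+ cells. The 8 on the same strand held 2 of the 5 higher calls and no lower call in each fraction. Of all genes, 29.9% were higher and 19.9% lower in YFP- cells, and 24.7% and 16.7% in YFP+ cells. The part of shared bases in these calls was not tested.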
